A study of Mus musculus with 9 samples.

Results

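The genes described here are 10 adhesion genes of leukocytes, namely the selectin ligand Selplg, the integrin subunits Itgam, Itgb2, Itgal, Itga4, Itgb1 and Itgb7, the hyaluronan receptor Cd44, and Icam1 and Ceacam1 of the immunoglobulin superfamily. They were chosen by name as genes of rolling and firm adhesion, and all 10 were among the 18194 genes measured. Each gene was read from the probe set that carried only its symbol and had the highest mean over the 9 arrays.

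Blood was drawn from 9 C57BL/6 mice aged 8 to 9 weeks, and the RNA of each mouse was run on 1 array, so that each group had 3 animals. In the PT + HS group, polytrauma (head injury, femoral fracture and blunt chest trauma) was followed after 1 h by bleeding to an arterial pressure of 30 mmHg for 60 min, and 4 times the drawn volume was then given as fluid within 30 min, with norepinephrine where the pressure required it. PT mice had the same trauma without the bleeding, and both trauma groups were anesthetized throughout, received buprenorphine and catheters and were sampled 4 h after trauma. Ctrl mice had no manipulation and gave blood directly once they were anesthetized, so that a difference from Ctrl cannot be assigned to the trauma alone. The study asked how an added hemorrhagic shock (HS) shifts immune gene expression after polytrauma (PT).

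Leukocytes leave the blood in steps. Selectins on activated endothelium and platelets first catch sugar-decorated ligands such as the product of Selplg (PSGL-1), and the cell rolls. Chemokine signals then switch integrins, each a pair of an α and a β subunit, into a form that binds partners of the immunoglobulin superfamily such as ICAM-1, and the cell stops and crawls. Itgal with Itgb2 forms LFA-1, used by nearly all leukocytes. Itgam with Itgb2 forms Mac-1, which is typical of neutrophils and monocytes. Itga4 pairs with Itgb1 or with Itgb7 and serves the arrest of lymphocytes and monocytes, the pair with Itgb7 above all in the gut.

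Values are log2 expression values on the scale of the deposited table, in which the array medians lay between 3.63 and 3.76 and the lowest value was 1.74, so that no gene is at 0. PT replicate 2 stood apart from the rest: its correlation with the other arrays over all probe sets was between 0.912 and 0.949, whereas the other 8 arrays correlated at 0.961 or more with each other. In whole blood, fewer cells of a type and less RNA per cell cannot be told apart. The summed level of the 15 neutrophil markers measured (log2 of the summed intensities) ranged from 13.35 to 14.63 in PT + HS, from 12.88 to 14.28 in PT and from 12.12 to 13.02 in Ctrl. The same sum over 12 B-cell markers ranged from 10.03 to 10.52 in PT + HS, from 9.26 to 11.31 in PT and from 11.39 to 12.36 in Ctrl. The sum over 10 NK-cell markers ranged from 10.01 to 10.52 in PT + HS, from 8.82 to 10.29 in PT and from 10.62 to 10.69 in Ctrl. Platelet and red cell precursor markers were also plainly present, the red cell precursor sum ranging from 14.58 to 14.65 in PT + HS, from 14.55 to 14.85 in PT and from 14.63 to 14.66 in Ctrl. Such a sum mainly follows its brightest genes. In PT + HS the brightest neutrophil markers were S100a8 (mean log2 value 12.39) and S100a9 (12.32), and the brightest red cell precursor marker was Alas2 (14.25). PT replicate 2 had the highest red cell precursor sum of the 9 arrays (14.85) and the lowest B-cell (9.26), T-cell (10.61), NK-cell (8.82) and platelet (13.47) sums.

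A gene is said to pass the study's thresholds where the unadjusted p of limma was under 0.05 and the fold change at least 1.5. Between PT + HS and PT, 0 of the 10 genes passed, against 1.12% of all genes, and 2 of 10 (Itgb1 and Cd44, both higher in PT + HS) had an unadjusted p under 0.05, against 2.87%. Between PT and Ctrl, 3 of 10 passed, against 3.67% of all genes: Itgam was higher in PT (1.41% of all genes were), and Itgb1 and Itgb7 were lower (2.26% were). An unadjusted p under 0.05 was found for these and Itgal, that is 4 of 10, against 5.82%. PT + HS against Ctrl also gave 3 of 10, against 3.28%: Selplg and Itgam were higher in PT + HS (1.99% of all genes were) and Itgb7 was lower (1.29% were), and no further gene of the 10 had an unadjusted p under 0.05 (4.86% of all genes did). Both comparisons use the same Ctrl arrays. With Benjamini-Hochberg adjustment over all genes, 0 of the 10 had an adjusted p under 0.05 in any comparison, and the smallest adjusted p among them in limma was 0.681, for Itgb1 between PT and Ctrl. Over all genes, 0 reached that level between PT + HS and PT, 0 between PT and Ctrl, and 1 (0.0055%) between PT + HS and Ctrl.

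The differences between PT + HS and PT were above 0 in 9 of the 10 genes, with a median of 0.20, while 49.3% of all genes were above 0, with a median of -0.0031. Those between PT and Ctrl were above 0 in 3 of 10, with a median of -0.17, against 49.9% of all genes. Those between PT + HS and Ctrl were above 0 in 6 of 10, with a median of 0.13, against 47.4% of all genes. Without PT replicate 2, the differences between PT + HS and PT were above 0 in 7 of the 10 genes, with a median of 0.10, against 49.6% of all genes: Itga4 (-0.10) and Itgb7 (-0.0834) joined Icam1 below 0, and Selplg (0.08) and Itgb2 (0.09) lay close to it. Those between PT and Ctrl were then above 0 in 4 of 10, with a median of -0.14, against 48.8% of all genes.

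**Figure D1:**
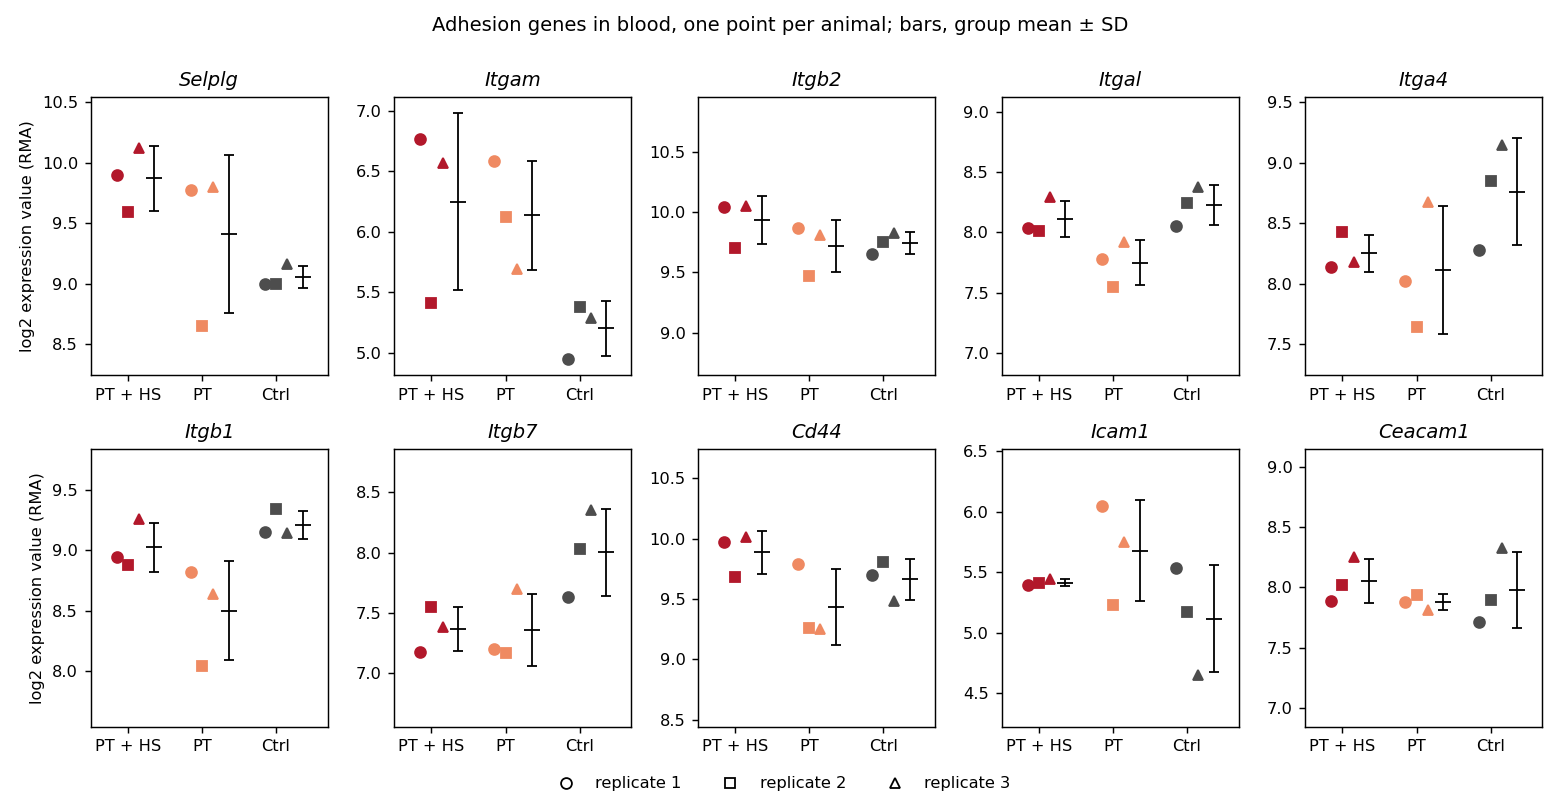
Log2 expression value of each of the 10 adhesion genes (y axis, a scale of its own for each gene) in PT + HS, PT and Ctrl mice, 1 point per animal with the group mean and SD (n = 3 each) as bars. Itgam lay higher in all 6 injured animals than in the Ctrl animals, while Itgb7 lay lower in all 3 PT + HS animals than in the Ctrl animals.

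Selplg encodes the main ligand of P-selectin on leukocytes. Its log2 values were 9.90, 9.59 and 10.12 in PT + HS, 9.77, 8.65 and 9.80 in PT, and 9.00, 9.00 and 9.16 in Ctrl. All PT + HS animals were above all Ctrl animals, and in PT replicates 1 and 3 were above Ctrl whereas replicate 2 was below. The group means were 9.87 ± 0.27 in PT + HS, 9.41 ± 0.66 in PT and 9.05 ± 0.09 in Ctrl (SD, n = 3 each). PT + HS exceeded Ctrl by 0.82 on the log2 scale (SE 0.30, 1.76-fold, unadjusted p = 0.0208, adjusted p = 0.854 in limma), and PT exceeded Ctrl by 0.36 (SE 0.30, adjusted p = 0.999 in limma). The difference between PT + HS and PT was 0.46 (95% interval -0.20 to 1.12). Without PT replicate 2 the difference between PT and Ctrl was 0.74 and passed the study's thresholds, and that between PT + HS and PT was 0.08. The difference between PT + HS and Ctrl no longer passed without PT + HS replicate 1 (0.80), PT + HS replicate 3 (0.69), Ctrl replicate 1 (0.79) or Ctrl replicate 2 (0.79).

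Cd44 encodes a receptor for hyaluronan that, suitably glycosylated, also binds E-selectin. It measured 9.97, 9.68 and 10.01 in PT + HS, 9.79, 9.26 and 9.25 in PT, and 9.70, 9.81 and 9.48 in Ctrl. The groups overlapped, since PT replicate 1 was above PT + HS replicate 2. PT + HS exceeded PT by 0.45 (SE 0.20, 95% interval 0.01 to 0.90, unadjusted p = 0.0475, adjusted p = 1 in limma), which is below 1.5-fold. Without PT replicate 1 the difference was 0.63 and passed the study's thresholds. In PT + HS, 3 of the 4 probe sets of Cd44 exceeded PT. The third brightest had 7.22, 6.63 and 7.32 in PT + HS against 6.60, 6.19 and 6.39 in PT, a difference of 0.67 (SE 0.21, adjusted p = 1 in limma) that passed the study's thresholds in the fit to all probe sets.

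Before the integrins are described one by one, the start of Itgam, Icam1, Itga4 and Itgb7 is shown, because the first pair had higher mean values in PT than in Ctrl and the second pair lower ones. Icam1 and Itga4 did not pass the study's thresholds there in the fit to genes. Each stretch is the 160 bases before the start that the RefSeq promoter table gives for the mouse build GRCm38.p6, written 5′ to 3′ on the strand of the gene, at chr7:128062480-128062639 (plus strand) for Itgam, chr9:21015780-21015939 (plus strand) for Icam1, chr2:79255266-79255425 (plus strand) for Itga4 and chr15:102231936-102232095 (minus strand) for Itgb7. For Itgam, Icam1 and Itga4 that start is the first base of the annotated gene, whereas for Itgb7 it lies 1470 bases inside the gene (chr15:102215994-102233405). Capitals mark every match to the letters GAGGAA (the core bound by PU.1, a myeloid and B-cell factor), GGANNTTCC (NF-kB), TGTGGT (RUNX) or TGACTCA (AP-1) on either strand.
Itgam: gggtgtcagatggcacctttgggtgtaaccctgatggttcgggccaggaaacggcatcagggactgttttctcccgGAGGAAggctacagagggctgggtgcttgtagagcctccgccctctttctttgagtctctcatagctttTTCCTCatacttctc
Icam1: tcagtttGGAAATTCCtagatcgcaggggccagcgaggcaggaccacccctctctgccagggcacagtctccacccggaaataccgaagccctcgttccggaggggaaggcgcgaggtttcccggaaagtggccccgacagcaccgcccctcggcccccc
Itga4: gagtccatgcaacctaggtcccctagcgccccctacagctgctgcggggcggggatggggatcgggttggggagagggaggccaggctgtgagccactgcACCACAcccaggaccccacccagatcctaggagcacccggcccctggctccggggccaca
Itgb7: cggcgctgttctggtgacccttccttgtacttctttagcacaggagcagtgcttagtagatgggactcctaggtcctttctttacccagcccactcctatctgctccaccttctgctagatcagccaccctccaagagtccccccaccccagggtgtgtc
The Itgam stretch held 2 matches to the PU.1 core, one 84 bases before the start on the strand of the gene and one 15 bases before it on the opposite strand. The Icam1 stretch held 1 match to the NF-kB letters, 153 bases before the start, Itga4 held 1 match to the RUNX letters on the opposite strand, 60 bases before the start, and Itgb7 held none of the 4. Over 250 bases before the start, 23.3% of the 32851 promoters in the table held the PU.1 core, 3.59% the NF-kB letters, 14% the RUNX letters and 4.46% the AP-1 letters. Of the 10 genes 7 matched an entry of the table, and over those 250 bases Cd44 held 2 matches to the PU.1 core and Ceacam1 and Itgb1 held 1 each. Unlike Itgam, these genes had lower mean values in PT than in Ctrl (-0.23 for Cd44, -0.10 for Ceacam1 and -0.71 for Itgb1). In the fit to genes only Itgb1 of these passed the study's thresholds (unadjusted p = 0.277 for Cd44 and 0.604 for Ceacam1 in limma). The second brightest probe set of Cd44 was higher in PT than in Ctrl, by 0.23 (SE 0.29). A relation between the matches and the direction of a gene was not tested. A match of letters is a description and not a binding site.

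Itgam encodes CD11b, the α subunit of Mac-1 and a standard surface marker of neutrophils and monocytes. Its log2 values were 6.77, 5.41 and 6.57 in PT + HS, 6.59, 6.12 and 5.69 in PT, and 4.95, 5.38 and 5.29 in Ctrl. All 6 injured animals were above all Ctrl animals, although PT + HS replicate 2 was only just above Ctrl replicate 2. PT + HS exceeded Ctrl by 1.04 (SE 0.36, 2.06-fold, unadjusted p = 0.0151, adjusted p = 0.814 in limma) and PT exceeded Ctrl by 0.93 (SE 0.36, 1.91-fold, unadjusted p = 0.0259, adjusted p = 0.796 in limma). PT + HS and PT differed by 0.11 (95% interval -0.68 to 0.91), so that a change of either sign of more than 1.5-fold lies within the interval. The spread within PT + HS went with the neutrophil markers, whose summed level was 14.63, 13.35 and 14.11 in PT + HS replicates 1, 2 and 3, lowest in the animal with the lowest Itgam. Within the other groups it did not, since the marker sum was lowest in PT replicate 2 (12.88) and highest in Ctrl replicate 1 (13.02), whereas Itgam was lowest in PT replicate 3 and in Ctrl replicate 1. The same sum over the monocyte markers was 11.95, 11.85 and 12.03 in PT + HS, also lowest in replicate 2. In PT it was 12.33, 11.42 and 10.92, in the order of Itgam. In Ctrl it was 11.57, 11.19 and 11.34, in the opposite order to Itgam. Of the 15 neutrophil markers, 10 passed the study's thresholds as higher in PT + HS and 7 as higher in PT than in Ctrl. The part of the neutrophil and monocyte markers in the Itgam and Selplg values was not tested. Itgam did not pass between PT and Ctrl without PT replicate 1 (0.70) or Ctrl replicate 1 (0.80), nor between PT + HS and Ctrl without PT + HS replicate 1 (0.78), PT + HS replicate 3 (0.88) or Ctrl replicate 1 (0.91).

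Itgb2 encodes CD18, the β subunit shared by Mac-1 and LFA-1, whose loss causes leukocyte adhesion deficiency. It measured 10.04, 9.70 and 10.05 in PT + HS, 9.87, 9.47 and 9.81 in PT, and 9.65, 9.75 and 9.83 in Ctrl. The 3 groups overlapped and replicate 2 was the lowest animal of both injured groups. PT + HS minus Ctrl was 0.19 (95% interval -0.20 to 0.58) and PT minus Ctrl was -0.03 (95% interval -0.42 to 0.37).

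Itgal encodes CD11a, the α subunit of LFA-1. It measured 8.04, 8.01 and 8.29 in PT + HS, 7.78, 7.55 and 7.92 in PT, and 8.05, 8.24 and 8.38 in Ctrl. All 3 PT animals were below every PT + HS and every Ctrl animal, while PT + HS and Ctrl overlapped. PT was below Ctrl by a log2 difference of -0.48 (SE 0.17, unadjusted p = 0.0214, adjusted p = 0.767 in limma), less than 1.5-fold, and PT + HS exceeded PT by 0.36 (SE 0.17, unadjusted p = 0.0649, adjusted p = 1 in limma). Among all genes, groups did not overlap for 9.44% between PT and Ctrl, 7.17% between PT + HS and PT and 13.2% between PT + HS and Ctrl. The members without overlap were Itgam, Itgal and Itgb1 between PT and Ctrl, Itgal and Itgb1 between PT + HS and PT, and Selplg, Itgam and Itgb7 between PT + HS and Ctrl. On the dimmer probe set of Itgal the difference between PT and Ctrl was 0.20 (SE 0.19), of the opposite sign.

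The balance between subunits was read as the difference of their log2 values within an array, which cancels what is common to both genes in an animal. Itgam minus Itgal was -1.27, -2.60 and -1.72 in PT + HS, -1.19, -1.43 and -2.23 in PT, and -3.11, -2.86 and -3.09 in Ctrl. Every injured animal lay above every Ctrl animal, PT + HS by 1.16 and PT by 1.41 on average. Itgal minus Itgb2 was -2.01, -1.70 and -1.76 in PT + HS, -2.09, -1.92 and -1.89 in PT, and -1.59, -1.51 and -1.45 in Ctrl, so that every injured animal lay below every Ctrl animal, with mean differences of -0.30 in PT + HS and -0.45 in PT. With the mean of all probe sets of a gene in place of the brightest, these differences shrank to -0.16 in PT + HS and -0.11 in PT. Itgam minus Itgb2 exceeded Ctrl by a mean of 0.85 in PT + HS and 0.96 in PT, also without overlap. In each of these 6 comparisons the exact two-sided permutation test gave p = 0.1, the smallest that 3 against 3 animals allow, and an adjusted p of 0.3 over the 18 comparisons of 6 pairs. The 3 pairs overlapped between PT + HS and PT, with differences of -0.25 for Itgam minus Itgal, -0.10 for Itgam minus Itgb2 and 0.15 for Itgal minus Itgb2 (exact permutation p = 0.6, 0.6 and 0.3). The sign of Itgam minus Itgal against Ctrl follows in part from the differences of its 2 genes given above and adds no independent measurement.

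**Figure D2:**
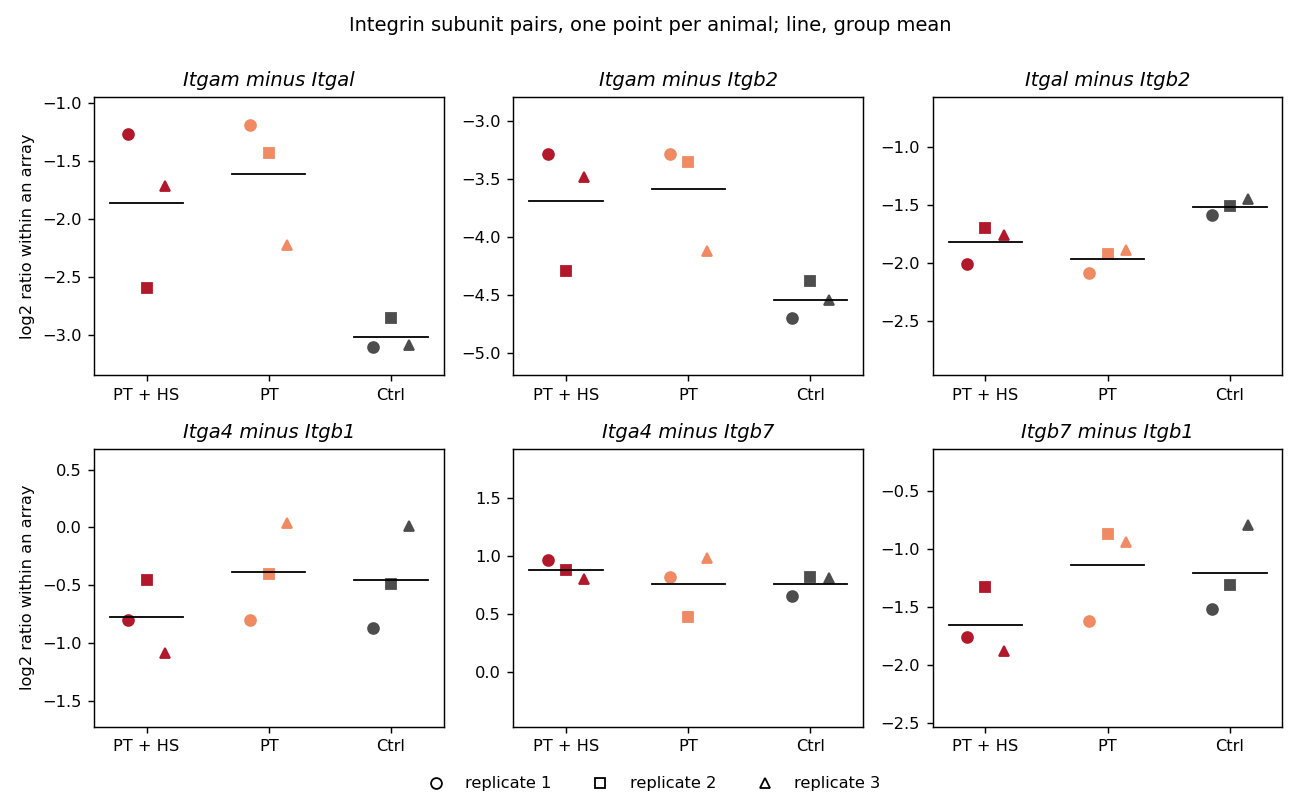
Difference of log2 values between 2 integrin subunits within an array (y axis, log2 ratio) for 6 pairs in PT + HS, PT and Ctrl mice, 1 point per animal, with the group mean as a line. Itgam minus Itgal lay between -2.60 and -1.19 in the 6 injured animals and between -3.11 and -2.86 in Ctrl, whereas Itga4 minus Itgb7 overlapped in all groups.

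Itgb7 encodes the β subunit that pairs with Itga4 on gut-homing lymphocytes. Its log2 values were 7.18, 7.55 and 7.38 in PT + HS, 7.20, 7.17 and 7.70 in PT, and 7.63, 8.03 and 8.35 in Ctrl. All PT + HS animals were below all Ctrl animals, while in PT only replicate 3 reached into the Ctrl range. PT + HS was below Ctrl by a log2 difference of -0.63 (SE 0.23, 0.646-fold, unadjusted p = 0.0212, adjusted p = 0.858 in limma) and PT by -0.64 (SE 0.23, 0.641-fold, unadjusted p = 0.0195, adjusted p = 0.741 in limma). PT + HS and PT differed by 0.01 (95% interval -0.50 to 0.53). Itgb7 did not pass between PT and Ctrl without PT replicate 1 (-0.56), PT replicate 2 (-0.55) or Ctrl replicate 3 (-0.47), nor between PT + HS and Ctrl without PT + HS replicate 1 (-0.54), Ctrl replicate 2 (-0.62) or Ctrl replicate 3 (-0.46).

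Itga4 encodes the α subunit common to both pairs. It measured 8.14, 8.43 and 8.18 in PT + HS, 8.02, 7.64 and 8.68 in PT, and 8.28, 8.85 and 9.15 in Ctrl. The groups overlapped, and Itga4 did not pass the study's thresholds in any comparison of the fit to genes. The log2 difference from Ctrl was -0.51 in PT + HS (SE 0.29, unadjusted p = 0.114, adjusted p = 0.999 in limma) and -0.65 in PT (SE 0.29, unadjusted p = 0.0527, adjusted p = 0.874 in limma). It passed between PT and Ctrl without PT replicate 3 (-0.93) or Ctrl replicate 1 (-0.89), and between PT + HS and Ctrl without Ctrl replicate 1 (-0.75). The difference shrank to -0.41 between PT and Ctrl without PT replicate 2, and to -0.32 between PT + HS and Ctrl without Ctrl replicate 3. In the fit to all 45101 probe sets, the Itga4 probe set used here just passed between PT and Ctrl (-0.65, unadjusted p = 0.0499, adjusted p = 0.934 in limma). The second brightest of its 5 probe sets passed between PT + HS and Ctrl (-0.68, unadjusted p = 0.0241, adjusted p = 0.977 in limma).

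Itga4 and Itgb7 ran together across animals, with a Pearson correlation of 0.942 over the 9 arrays, which are 3 animals from each of 3 groups. In Ctrl both were lowest in replicate 1 and highest in replicate 3, in PT both were highest in replicate 3, and in PT + HS both were highest in replicate 2. Their difference within an array, Itga4 minus Itgb7, was 0.96, 0.88 and 0.80 in PT + HS, 0.82, 0.47 and 0.98 in PT, and 0.65, 0.82 and 0.81 in Ctrl. The B-cell markers followed the same order of animals in Ctrl, with summed levels of 11.39, 11.91 and 12.36 in replicates 1, 2 and 3, and were also highest in PT replicate 3 (11.31) and in PT + HS replicate 2 (10.52). The T-cell sum had the same order in Ctrl (10.94, 11.26 and 11.9). It was likewise highest in PT replicate 3 (12.88) and in PT + HS replicate 2 (11.98). Its correlation over the 9 arrays was 0.53 with Itga4 and 0.309 with Itgb7. Over the 9 arrays the B-cell sum correlated at 0.945 with Itgb7 and at 0.937 with Itga4, and 11 of the 12 B-cell markers passed the study's thresholds as lower than Ctrl in PT + HS, and 11 did so in PT. Of the 10 NK-cell markers, 3 passed as lower than Ctrl in PT + HS and 5 in PT, and the NK-cell sum correlated at 0.816 with Itga4, 0.707 with Itgb7, 0.825 with Itgb1 and 0.755 with Itgal. Of 15 T-cell markers 0 passed in either comparison, while without PT replicate 2, 5 passed as higher in PT than in Ctrl. In that fit, 768 of all 18194 genes did so. The part of the B-cell, T-cell and NK-cell markers in these integrin values was not tested.

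Itgb1 encodes the other partner of Itga4 and is also carried by platelets and many non-lymphoid cells. It measured 8.94, 8.88 and 9.26 in PT + HS, 8.82, 8.04 and 8.64 in PT, and 9.15, 9.34 and 9.14 in Ctrl. All PT animals were below all PT + HS and all Ctrl animals, the lowest being PT replicate 2. The log2 difference from Ctrl was -0.18 in PT + HS (95% interval -0.68 to 0.31) and -0.71 in PT (SE 0.22, 0.612-fold, unadjusted p = 0.00961, adjusted p = 0.681 in limma). PT + HS exceeded PT by 0.52 (SE 0.22, unadjusted p = 0.0397, adjusted p = 1 in limma), just under 1.5-fold. Without PT replicate 2, Itgb1 did not pass between PT and Ctrl (-0.48) and the difference between PT + HS and PT was 0.29. Against PT, Itgb1 in PT + HS passed without PT + HS replicate 2 (0.60), PT replicate 1 (0.68) or PT replicate 3 (0.59). On the second brightest of its 6 probe sets the groups overlapped. There the difference between PT and Ctrl was -0.65 (SE 0.35) and did not pass in the fit to all probe sets. Of the 6 probe sets, 2 were higher in PT than in Ctrl. The summed platelet markers were 14.00, 13.67 and 13.89 in PT + HS, 13.75, 13.47 and 13.65 in PT, and 14.06, 14.06 and 13.79 in Ctrl, lowest in PT replicate 2 as Itgb1 was, and their part in Itgb1 was not tested. Of the 9 platelet markers measured, 2 (Gp5 and Gp6) were lower in PT than in Ctrl past the study's thresholds and 0 were so in PT + HS.

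**Figure D3:**
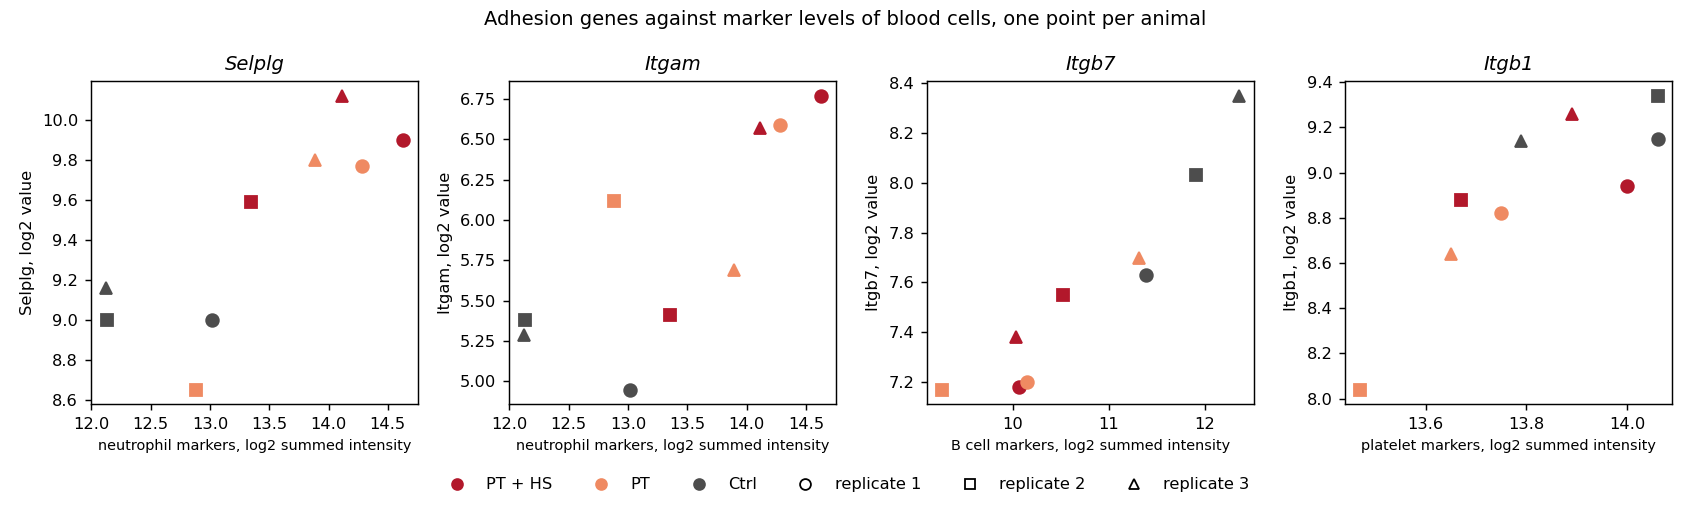
Log2 value of Selplg, Itgam, Itgb7 and Itgb1 (y axes) against the log2 summed intensity of the markers of neutrophils, neutrophils, B cells and platelets (x axes), 1 point per animal of PT + HS, PT and Ctrl. Ctrl animals lie at the right of the B-cell panel (11.39 to 12.36) with Itgb7 values of 7.63 to 8.35, PT replicate 3 (7.70) lying within that range, and PT replicate 2 lies lowest in the platelet panel (13.47) with the lowest Itgb1 value (8.04).

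Icam1 encodes a ligand of LFA-1 and Mac-1 that endothelium and activated leukocytes display. It measured 5.39, 5.41 and 5.44 in PT + HS, 6.05, 5.23 and 5.75 in PT, and 5.53, 5.17 and 4.65 in Ctrl. The groups overlapped, and PT + HS was the tightest of the 3, with an SD of 0.03 against 0.42 in PT and 0.44 in Ctrl. PT + HS minus Ctrl was 0.30 (95% interval -0.29 to 0.88), PT + HS minus PT was -0.26 (95% interval -0.85 to 0.32) and PT minus Ctrl was 0.56 (SE 0.26, unadjusted p = 0.0590, adjusted p = 0.881 in limma). Icam1 was the only one of the 10 genes with a lower mean in PT + HS than in PT. It passed between PT and Ctrl without PT replicate 2 (0.79) or Ctrl replicate 1 (0.77), and the difference shrank to 0.33 without Ctrl replicate 3.

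Without PT replicate 2, the array that stood apart, 3 of the 10 genes again passed between PT and Ctrl, but these were Selplg, Itgam and Icam1, all higher in PT, and Itgb1 and Itgb7 no longer passed. Calls over all 18194 genes moved the same way. Without that array 768 passed as higher and 349 as lower in PT, against 257 and 411 with all arrays. In PT + HS against PT, 0 of the 10 passed without that array, while of all genes 252 passed as higher and 603 as lower.

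**Figure D4:**
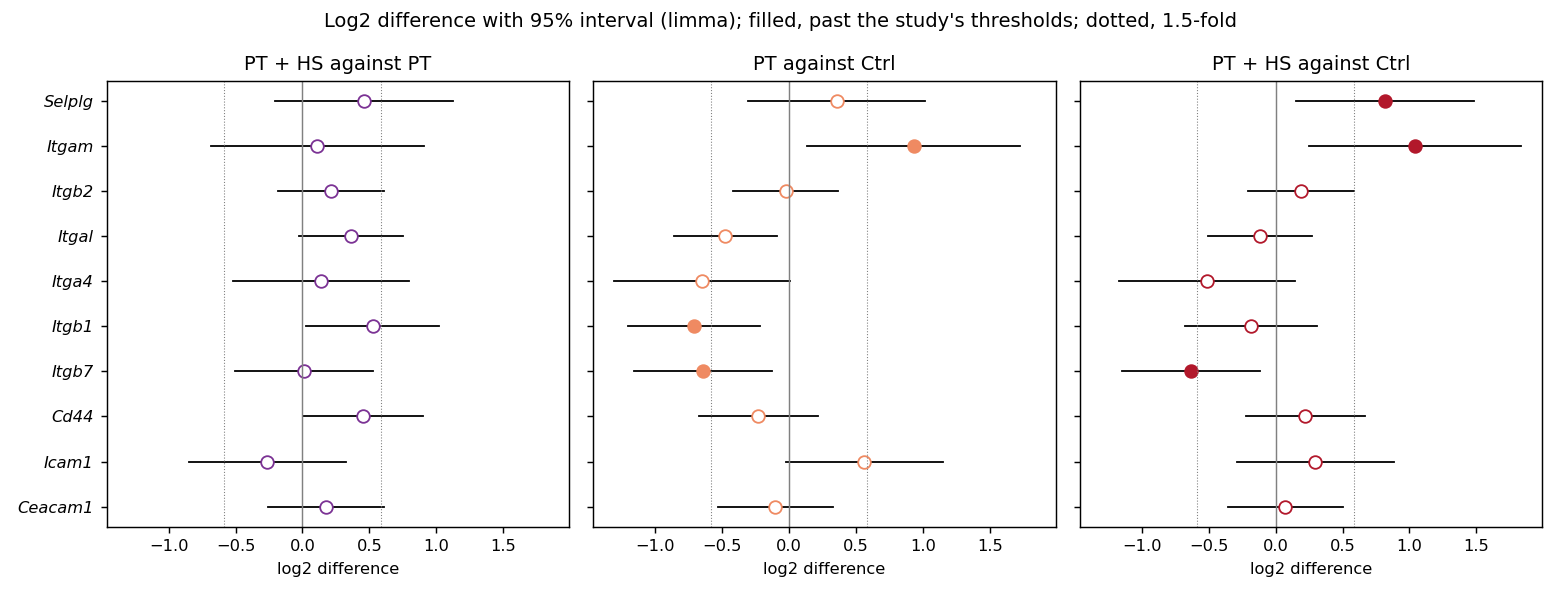
Log2 difference of each of the 10 genes (x axis) between PT + HS and PT, PT and Ctrl, and PT + HS and Ctrl, with the 95% interval of limma, filled where the study's thresholds were passed and with dotted lines at 1.5-fold. No point is filled between PT + HS and PT, and Itgam and Itgb7 are filled in both comparisons with Ctrl.

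Ceacam1 encodes an adhesion molecule of neutrophils, lymphocytes and epithelium that binds itself on neighboring cells and carries inhibitory motifs in its tail. On the probe set taken for the gene it measured 7.89, 8.02 and 8.25 in PT + HS, 7.88, 7.94 and 7.81 in PT, and 7.71, 7.90 and 8.33 in Ctrl. The groups overlapped, with PT minus Ctrl at -0.10 (95% interval -0.53 to 0.33) and PT + HS minus PT at 0.18 (95% interval -0.26 to 0.61).

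The other probe sets of Ceacam1 were looked at after the values had been seen. Of 10 probe sets annotated to Ceacam1, 8 carry only that symbol and 2 also carry Ceacam2, its close relative, so that the signals of these 2 genes cannot be separated there. In a fit to all 45101 probe sets, all 10 were lower in PT than in Ctrl and 7 passed the study's thresholds, against 1.67% of all probe sets in that direction. In PT + HS, all 10 exceeded PT and 4 passed, against 0.561%. Compared with Ctrl, 0 passed in PT + HS (1.39% of all probe sets passed as higher and 1.11% as lower), and 9 of 10 were below 0. Probe sets of one gene share transcripts and samples and are not independent.

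The brightest Ceacam1 probe set, which also carries Ceacam2, had 9.17, 9.01 and 9.13 in PT + HS, 8.52, 8.36 and 8.26 in PT, and 9.40, 9.36 and 9.34 in Ctrl. The 3 groups were fully apart, with PT lowest and PT + HS between PT and Ctrl but closer to Ctrl. PT was below Ctrl by a log2 difference of -0.99 (SE 0.13, unadjusted p = 2.634e-05, adjusted p = 0.238 in limma), the 5th smallest p of the 45101 probe sets. PT + HS exceeded PT by 0.72 (SE 0.13, unadjusted p = 0.000303, adjusted p = 1 in limma), the 3rd smallest p. PT + HS minus Ctrl was -0.26 (SE 0.13, unadjusted p = 0.0744, adjusted p = 1 in limma). With each array left out in turn the difference between PT and Ctrl stayed between -1.06 and -0.93 and that between PT + HS and PT between 0.66 and 0.79, and both passed the study's thresholds every time.

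The third brightest Ceacam1 probe set, which carries only that symbol, had 7.42, 7.17 and 7.55 in PT + HS, 6.98, 6.51 and 6.41 in PT, and 7.88, 7.86 and 7.32 in Ctrl. PT was below both other groups without overlap, by a log2 difference of -1.05 from Ctrl (SE 0.22, adjusted p = 0.512 in limma), and PT + HS exceeded PT by 0.75 (SE 0.22, adjusted p = 1 in limma). The other probe set shared with Ceacam2 differed by -1.17 between PT and Ctrl (SE 0.31) and by 0.96 between PT + HS and PT (SE 0.31). Without PT replicate 2, 5 of the 10 Ceacam1 probe sets passed between PT and Ctrl, all lower, and 4 between PT + HS and PT, all higher. The shares over all probe sets given above belong to the fit with all arrays. In the fit to genes without PT replicate 2, 349 of 18194 genes passed as lower between PT and Ctrl. Between PT + HS and PT, 252 genes passed as higher, against 132 with all arrays. The probe set used for the gene, the second brightest, had the sign of all the others in both comparisons. It was one of 3 that did not pass between PT and Ctrl and one of 6 that did not pass between PT + HS and PT. Which of the probe sets follows the Ceacam1 transcripts was not tested.

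**Figure D5:**
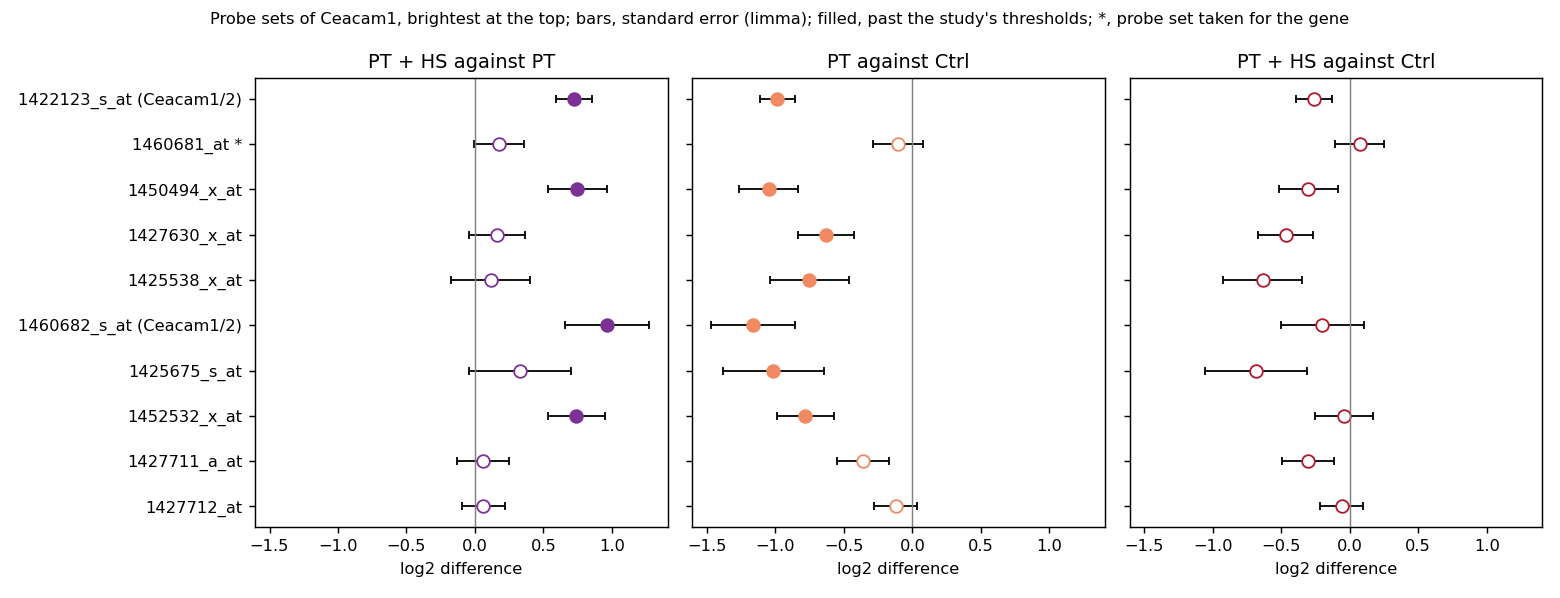
Log2 difference (x axis) of the 10 probe sets annotated to Ceacam1, named by its identifier with the brightest at the top and an asterisk at the one taken for the gene, between PT + HS and PT, PT and Ctrl, and PT + HS and Ctrl, with the standard error of limma as bars, filled where the study's thresholds were passed. In the comparison of PT with Ctrl 7 are filled, all below 0, and in that of PT + HS with PT 4 are filled, all above 0.

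The genes around these 10 were read from lists of known function. Of all genes, 1.41% passed as higher and 2.26% as lower between PT and Ctrl, 1.99% and 1.29% between PT + HS and Ctrl, and 1.12% in either direction between PT + HS and PT. Of 12 enzymes that build selectin ligands, 3 passed as higher in PT than in Ctrl: C1galt1c1, the chaperone of the enzyme that starts core O-glycans, by 1.44 (SE 0.43), Gcnt1, which branches them, by 1.03 (SE 0.45), and St3gal4, a sialyltransferase, by 0.60 (SE 0.27). The median of the 12 was 0.29 between PT and Ctrl. St3gal4 no longer passed without PT replicate 2, whereas Gcnt1 and C1galt1c1 did. In PT + HS 0 passed as higher than Ctrl, although Gcnt1 and C1galt1c1 did when PT replicate 2 was left out of the fit, and Tpst1, which sulfates tyrosines such as those of PSGL-1, differed by -0.78 (SE 0.35). Of the 7 other selectin genes and ligands measured, among them Selp and Sele, 0 passed in any comparison.

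Of 20 genes of integrin activation, 3 passed as lower in PT than in Ctrl: Vcl, encoding vinculin (-0.83, SE 0.30), Parvb, a partner of integrin-linked kinase (-0.70, SE 0.23), and Rasgrp2, the exchange factor that activates Rap1 in platelets and leukocytes (-0.61, SE 0.23). In PT + HS, Rasgrp2 differed from Ctrl by -0.59 (SE 0.23) and Pxn, encoding paxillin, by 0.82 (SE 0.33). In PT + HS 15 of the 20 exceeded PT, against 49.3% of all genes, with a median difference of 0.26, and 0 passed. All 9 platelet, all 10 NK-cell and all 10 monocyte markers measured also exceeded PT in PT + HS. Without PT replicate 2, 9 of the 20 genes exceeded PT, with a median of -0.0399, and of Vcl, Parvb and Rasgrp2 only Parvb passed as lower in PT than in Ctrl. In that fit all 9 platelet, all 10 monocyte and 8 of the 10 NK-cell markers still exceeded PT in PT + HS. The part of these markers in the values of the 20 genes was not tested. Of 13 kinases and adaptors downstream of integrins, Plcg2 passed as lower in PT than in Ctrl (-0.90, SE 0.17) and Fgr, a Src-family kinase of myeloid cells, as higher in PT + HS than in Ctrl (0.67, SE 0.22). Of 14 other integrin subunits, 1 passed, Itgb5, which was lower in PT than in Ctrl (-0.66, SE 0.20) but did not pass without PT replicate 2.

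Of 14 immunoglobulin-family partners and transmigration genes, Icam2, a second LFA-1 ligand, was lower in PT than in Ctrl, with a difference of -1.19 (SE 0.48), as was Esam, a junction molecule of endothelium and platelets, with -0.61 (SE 0.14). Esam was the only one of these to pass between PT + HS and PT, where it was higher by 0.64 (SE 0.14). Esam still passed in both comparisons without PT replicate 2, whereas Icam2 did not pass between PT and Ctrl. Adam8, a membrane protease that can shed adhesion molecules including PSGL-1, had log2 differences from Ctrl of 2.30 (PT + HS) and 1.95 (PT), each with an SE of 0.44. Of the 5 sheddases Adam9 also passed, with 0.77 between PT + HS and Ctrl (SE 0.33). Among 9 partners of CD44 and relatives of Ceacam1, Cd74, the invariant chain that also marks B cells, had differences from Ctrl of -1.19 (PT + HS) and -1.48 (PT), each with an SE of 0.41, and Ceacam10 of 0.81 (PT + HS) and 0.73 (PT), each with an SE of 0.32. No gene of these lists had an adjusted p under 0.05 in limma in any of the 3 comparisons.

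Outside the 10 genes, the closest pattern over the 9 arrays by Pearson correlation was that of Il18rap for Selplg (0.98), Pde10a for Itgam (0.96), Kcmf1 for Itgb2 (0.95), Septin9 for Itgal (0.97), Cd37 for Itga4 (0.98), Gga2 for Itgb7 (0.97), Mob3a for Itgb1 (0.98), Litaf for Cd44 (0.94), Surf2 for Icam1 (0.95) and Gm31881 for Ceacam1 (0.90). The 9 arrays share their 3 groups, so that genes that differ between groups correlate, and each is the highest of all genes measured. The third closest gene to Itgb7 was Fcer2a (0.97), a B-cell marker of the list above.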

How the data were processed

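Blood RNA of 3 PT + HS, 3 PT and 3 Ctrl mice was measured, 1 array per animal. The deposited values are log2 expression values, for which the authors applied the robust multiarray average, that is, they corrected the background, equalized the quantiles between arrays and summarized the probes of each probe set. A Mouse Gene ST array is named in the paper, whereas the probe set names in the table are those of a 3′ Affymetrix mouse array. The sources used here give neither software versions nor scan dates, and a batch could not be tested. The number of arrays limits precision. In limma a difference is set against the spread between animals within groups, pooled over the 3 groups and moderated over all genes. The permutation p-values of the pairs come from regrouping the animals.

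Of 45101 probe sets, 34958 carried exactly 1 symbol, 932 several and 9211 none. The Entrez ID gave a current symbol for 34754. This left 18194 genes. Where a gene had several (9012 genes), the probe set of highest mean was used, without a filter on low values. limma 3.58.1 in R 4.3.3 was fitted to all genes with 1 mean per group, two-sided moderated tests and p-values adjusted per comparison by Benjamini-Hochberg. Subunit pairs were compared with the exact two-sided permutation test. Named are all 10 genes, up to 4 genes of each list by smallest unadjusted p, and genes from the 3 most similar to each of the 10. Pxn, S100a8, S100a9 and Alas2 were named outside this rule, after their values were seen. The genes and lists were chosen with earlier results of these data known. Some listed genes were not analysed here. The separate fit to all probe sets was added after the values had been seen. The alternatives were the methods' t-test, averaging all probe sets of a gene, the 6 arrays of a comparison alone, repeated quantile normalization, equal medians, array weights, a variance trend, genes above the median level, a replicate block and leaving out each array. The fit was tested on simulated data.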

Additional observations from a re-analysis of the deposited data

How the results depend on the processing

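The number of the 10 genes past the study's thresholds was 0 between PT + HS and PT, 3 between PT and Ctrl, and 3 between PT + HS and Ctrl, and counts below keep that order. The methods' t-test gave 1 between PT + HS and Ctrl (Selplg), and array weights, which gave PT replicate 1 86.9% of the PT mean, gave 5 between PT and Ctrl. With each array left out in turn the counts ranged from 0 to 2, from 1 to 4 and from 0 to 3. With the replicate block they were 0, 4 and 3. Deviations from the group mean correlated between -0.115 and 0.478 for same-numbered arrays of different groups. For arrays of different number and group they correlated between -0.445 and 0.307. With 3 animals per group these values cannot decide whether the numbers pair the animals. Averaging all probe sets of a gene turned the sign of Itga4 between PT + HS and PT (-0.0774) and of Itgal (0.0251) and Ceacam1 (-0.30) between PT + HS and Ctrl. It ended the call of Itgb1 between PT and Ctrl (-0.24) and made that of Ceacam1 (-0.60). Repeated quantile normalization turned Itgb7 between PT + HS and PT (-0.0354) and Itgb2 between PT and Ctrl (0.0387). Array weights turned Itgam between PT + HS and PT (-0.24) and Itgb2 (0.11) and Cd44 (0.0338) between PT and Ctrl. With an array left out, the range crossed 0 between PT + HS and PT for Itgam (-0.15 to 0.53), Itga4 (-0.10 to 0.42) and Itgb7 (-0.0834 to 0.18), between PT and Ctrl for Itgb2 (-0.10 to 0.10) and Ceacam1 (-0.24 to 0.0701), and between PT + HS and Ctrl for Ceacam1 (-0.0628 to 0.25). For Ceacam1 probe sets, array weights gave 2, 3 and 1 past the thresholds in place of 4, 7 and 0, the 6 arrays alone gave 2 between PT + HS and Ctrl, and leaving out an array gave 3 to 5, 5 to 7 and 0 to 1. Itgb7 lost its call with the t-test in both comparisons with Ctrl and with repeated quantile normalization between PT and Ctrl (-0.55). Itgam between PT + HS and Ctrl lost it with the t-test. Array weights ended the call of Itgb1 (-0.45) and made those of Selplg (0.69, adjusted p = 0.0776 in limma), Icam1 (0.84, adjusted p = 0.0504 in limma) and Itga4 (-0.68, adjusted p = 0.119 in limma), and the replicate block also made that of Itga4 (-0.65, adjusted p = 0.773 in limma), all between PT and Ctrl. Averaging all probe sets moved Itgal minus Itgb2 to -0.0540, -0.11 and -0.16, and Itga4 minus Itgb7 to -0.0888, 0.38 and 0.29. The causes were not tested.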
